A study of Mus musculus with 4 samples.

Results

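Cytosolic ribosomal protein genes are described here in mouse skeletal muscle, across 4 one-colour microarrays. The members are the genes whose name in the scanner files has the form of a large (Rpl) or small (Rps) subunit protein, a stalk protein (Rplp0, Rplp1, Rplp2) or Rpsa, with the Rps6k kinases left out. A gene was represented by its brightest probe, and that probe had to be well above background, the scanner software's own mark for a measured spot, on all 4 arrays. Of 27734 named genes on the array, 81 met the rule, and no gene with such a name was lost to the filter. They comprise 46 genes of the large subunit outside the stalk, 32 of the small subunit and 3 of the stalk. Over all genes, 14981 were well above background on the 4 arrays.

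The arrays hold muscle RNA of mice at 10 weeks of age that fed freely. The WT sample carries no listed mutation, the TBP-2-/- sample lacks TBP-2 (the thioredoxin-binding protein encoded by Txnip), the ob/ob sample carries the obese mutation of leptin, and the ob/ob TBP-2-/- sample carries both. Each genotype had 1 array, so the spread between mice is not known for any value, and "higher" and "lower" below describe these arrays. The labels do not say which muscle was taken, the strain and sex of the mice, whether RNA was pooled, or where Txnip was disrupted. The genotype field of the ob/ob sample reads Tob/ob while its title reads ob/ob, and the title was followed. In whole muscle, fewer cells of a type and less RNA per cell cannot be told apart.

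Cytosolic ribosomes are built from ribosomal RNA and a set of ribosomal proteins, nearly all needed in equal numbers, and their messenger RNAs are among the most abundant of any cell. Those messages start with a run of pyrimidines, the TOP motif, through which mTOR signalling controls their translation. In muscle, ribosome number limits protein synthesis and growth, and a few members have paralogs with tissue-restricted expression, such as Rpl3l in striated muscle. Several ribosomal protein genes serve as reference genes in expression studies.

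Values are given first as the processed signal of the probe, a background-subtracted spot intensity that is not scaled between arrays. Differences are log2 differences after each array was divided by its own 75th percentile, which was 278 on the WT, 305 on the TBP-2-/-, 307 on the ob/ob and 261 on the ob/ob TBP-2-/- array. The error after a difference is the standard error (SE) of the scanner software's error model, about 0.20 for a single spot, which covers technical error and not the spread between mice. All 13 fibre markers were well above background on every array, and their summed scaled level was 13658, 12120, 12096 and 13175 in the order of genotypes above. Txnip had a signal of 13209 on the WT, 868 on the TBP-2-/-, 13142 on the ob/ob and 166 on the ob/ob TBP-2-/- array, low on both arrays labelled TBP-2-/-.

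The members were bright, and their differences lay close to each other. Member signals ran from 173 to 215077, and the 81 differences had an SD of 0.11 for TBP-2-/- minus WT, 0.16 for ob/ob TBP-2-/- minus ob/ob, 0.20 for ob/ob minus WT and 0.15 for ob/ob TBP-2-/- minus TBP-2-/-. Over all genes well above background on both arrays of a comparison the SD was 0.40, 0.40, 0.46 and 0.43. Dim genes scatter more than bright ones, so part of that contrast goes with level. No member differed 1.5-fold between the TBP-2-/- and WT arrays, where 5.92% of all genes were higher and 3.30% lower by that much. None did so between the ob/ob TBP-2-/- and TBP-2-/- arrays either, where the shares of all genes were 6.23% and 5.02%.

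The ob/ob array was the one that stood apart for this family. There 76 of the 81 members had their lowest scaled level, against 25.7% of all genes. The WT array held the highest level of 61 members, against 35.5%, but of 19 under quantile normalization, against 30.4%, and of 15 under cyclic loess, against 29.0%. Under quantile normalization, which gives all arrays the same distribution, and under cyclic loess normalization, 57 members were lowest on the ob/ob array in each case, against 22.8% and 24.1% of all genes. Scaled on the spike-in RNA, 2 members were lowest there, against 1.05% of all genes. Spike-in scaling moved the median of all genes itself, to 0.64 for ob/ob minus WT and -0.50 for ob/ob TBP-2-/- minus ob/ob, so the members' position is best read relative to the other genes.

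For ob/ob minus WT the median member difference was -0.39, against -0.05 over all genes. It was below 0 for 78 members, against 55.6% of all genes. With quantile normalization the median was -0.13 and 64 members lay below 0, against 50.6%. With spike-in scaling it was 0.29 and 76 members lay above 0, against 95.4%. Relative to the median of all genes the family was lower on the ob/ob array in all 9 settings computed, by -0.34 as reported and from -0.34 to -0.13 across settings. Spike-in scaling and a percentile over measured probes move all genes of an array alike, so they cannot change this value. The authors' table is scaled as here, so it adds no separate check.

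For ob/ob TBP-2-/- minus ob/ob, the comparison that asks what loss of TBP-2 does on the obese background, the median member difference was 0.29, against 0.03 over all genes. It was above 0 for 77 members, against 54.5% of all genes. The quantile median was 0.20, with 69 members above 0 against 50.2%. With spike-in scaling the median was -0.24 and 78 members lay below 0, against 92.1%. Relative to all genes the family was higher on the ob/ob TBP-2-/- array in all 9 settings, by 0.26 as reported and from 0.17 to 0.27 across settings. Here too the settings that move all genes alike could not change the value. This comparison and ob/ob minus WT share the ob/ob array, so a shift of that array alone enters both.

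In lean muscle, TBP-2-/- minus WT had a median of -0.17, against -0.07 over all genes, and 76 members lay below 0, against 60.3%. That direction turned with the processing: the quantile median was 0.00 with 40 members below 0, against 55.7% of all genes, and the spike-in median was 0.07. Between the ob/ob TBP-2-/- and TBP-2-/- arrays the median was 0.06, against 0.04 over all genes, and 54 members lay above 0, against 55.3%. Its spike-in median was -0.03.

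**Figure D1:**
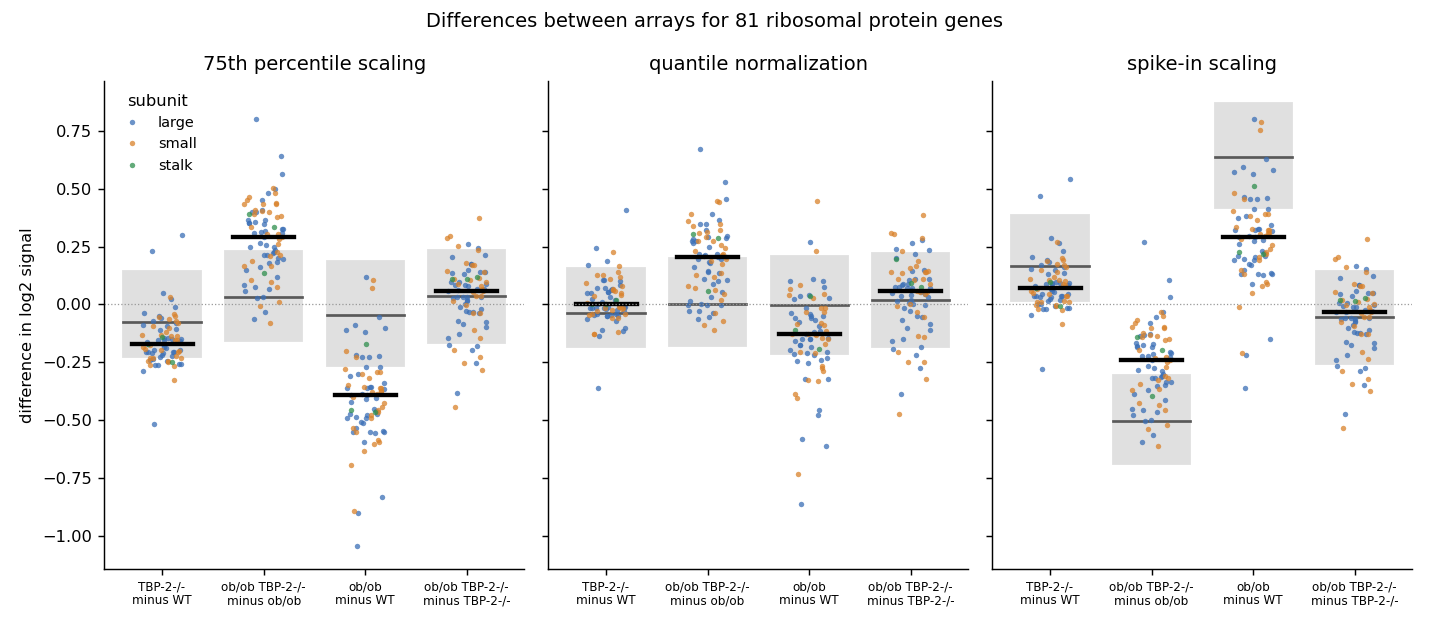
Difference in log2 signal (vertical axis) of each of the 81 ribosomal protein genes (points, coloured by subunit) in the 4 comparisons, under 75th percentile scaling, quantile normalization and spike-in scaling. Thick black bars are the members' medians, grey boxes the interquartile range of all genes and thin grey bars their median. In ob/ob minus WT the members' median lies below that of all genes in each panel (-0.39 against -0.05 under percentile scaling), although under spike-in scaling both are above 0.

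The shift on the ob/ob array went along with brightness, since other bright genes also moved. Among the 479 other genes whose mean level lay within the members' interquartile range, the median was -0.27 for ob/ob minus WT, against -0.42 for the 41 members in that range. For ob/ob TBP-2-/- minus ob/ob it was 0.11 against 0.29. For TBP-2-/- minus WT it was -0.20 for the other bright genes and -0.20 for the members. Quantile normalization took the other bright genes to -0.0045 for ob/ob minus WT and 0.0023 for ob/ob TBP-2-/- minus ob/ob, and left the members at -0.15 and 0.20. The SD of those other genes was 0.33 for ob/ob minus WT under either scaling, so single bright genes ranged well past these medians.

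**Figure D2:**
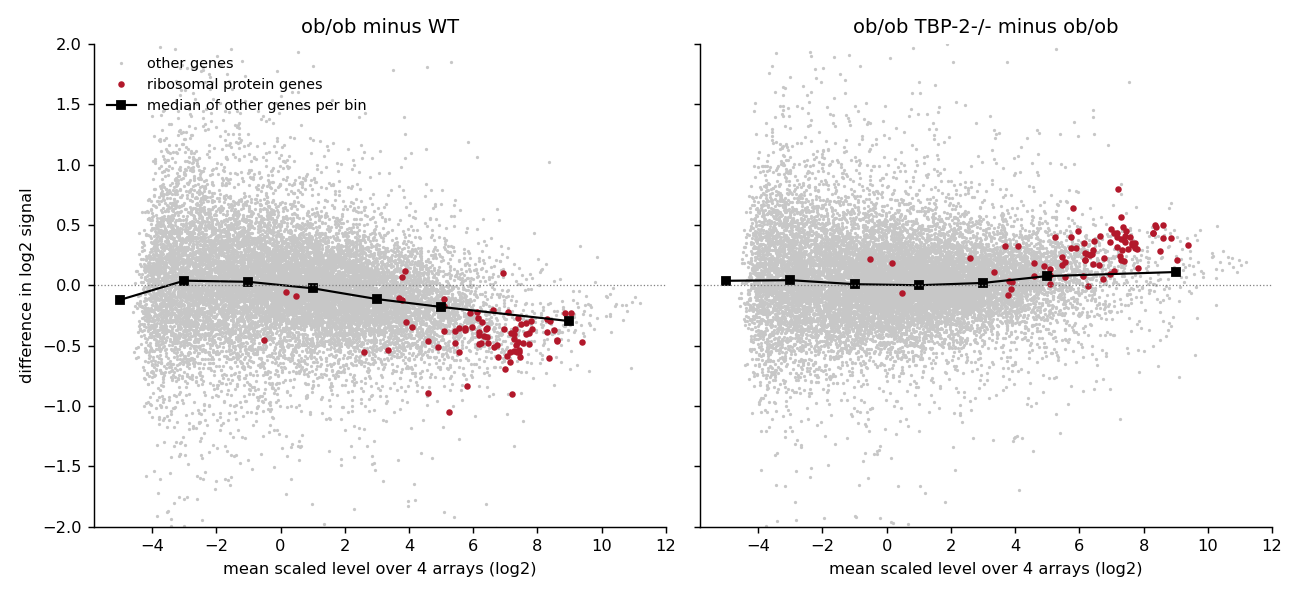
Difference in log2 signal against the mean scaled level over 4 arrays (log2) for ob/ob minus WT and for ob/ob TBP-2-/- minus ob/ob, with other genes in grey, the 81 members in red and the median of other genes per level bin as black squares. In the brightest bin the other genes' median was -0.30 and 0.11, and the members there had medians of -0.42 and 0.33; the vertical axis stops at 2 log2 units, which leaves out some other genes.

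Repeated printing of a probe shows the precision of a bright member. The probe of Rplp0, the stalk protein that anchors P1 and P2 to the large subunit, stood on each array 10 times, and its signal was 10059 ± 123 on the WT, 9977 ± 234 on the TBP-2-/-, 9855 ± 175 on the ob/ob and 9207 ± 280 on the ob/ob TBP-2-/- array (mean ± SD, n = 10 spots of 1 sample). The scaled difference was -0.14 ± 0.06 for TBP-2-/- minus WT, 0.14 ± 0.06 for ob/ob TBP-2-/- minus ob/ob and -0.17 ± 0.06 for ob/ob minus WT. Before scaling, the spots of the WT, TBP-2-/- and ob/ob arrays overlapped, and those of the ob/ob TBP-2-/- array lay below all WT spots. The other stalk proteins, which recruit elongation factors to the ribosome, moved further: Rplp1, the brightest member, had signals of 215077, 198225, 171903 and 184232 on the WT, TBP-2-/-, ob/ob and ob/ob TBP-2-/- arrays. Its difference for ob/ob minus WT was -0.46 ± 0.20, and that of Rplp2 was -0.46 ± 0.20 as well. With spike-in scaling all 3 stalk genes were above 0 in that comparison.

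On the ob/ob array 10 of the 81 members were 1.5-fold or more lower than on the WT array, against 6.84% of all genes, and none was higher by that much, against 6.24%. The number was 3 under quantile normalization, 4 under cyclic loess and 0 under spike-in scaling, against 911, 937 and 141 of 15139 genes. In these 3 settings the members' share did not exceed that of all genes. It did in the other settings, the reported one included. Under normexp background correction and under the median over probes 10 members were lower, against 596 and 1080 of 15139 genes. With a percentile over measured probes 5 were, against 794. Of the 10 members past 1.5-fold as reported, 5 were below 0 in all 9 settings, spike-in scaling included. These were Rpl22l1, Rpl13, Rps26, Rpl39 and Rps28. Of all members, Rpl4 alone was above 0 in all 9.

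Rpl22l1, the paralog of the RNA-binding protein Rpl22, gave the largest difference of the family. Its signal was 15576 on the WT, 11902 on the TBP-2-/-, 8319 on the ob/ob and 9334 on the ob/ob TBP-2-/- array, so the WT array was highest and the ob/ob array lowest. It was 2.07-fold lower on the ob/ob than on the WT array (-1.05 ± 0.20), the only member past 2-fold, against 1.73% of all genes. It was also the lowest member for TBP-2-/- minus WT, at -0.52 ± 0.20. Its probe maps to chromosome 3, bases 28998348 to 28998407 (mm8). Rpl22 itself had signals of 14245, 13537, 11304 and 11297, and its ob/ob minus WT difference was -0.48 ± 0.20. The paralog fell short of its parent by -0.57 ± 0.29 in that comparison, a quantity in which the scaling of the arrays cancels, and by -0.62 under quantile normalization. The other bright Rpl22 probe, with signals of 3705, 3977, 4133 and 2716, gave 0.02 for ob/ob minus WT, so the size of the contrast depends on the Rpl22 probe.

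Rps26, a small subunit protein at the mRNA exit channel, was low on both ob/ob arrays. Its signals were 9228 on the WT, 8421 on the TBP-2-/-, 5475 on the ob/ob and 5304 on the ob/ob TBP-2-/- array, and the lean and ob/ob pairs did not overlap. The difference was -0.89 ± 0.20 for ob/ob minus WT and -0.44 ± 0.20 for ob/ob TBP-2-/- minus TBP-2-/-, the lowest member value in the latter. Both were below 0 in all 9 settings. The probe, matched to a RefSeq transcript of the gene, lies on chromosome 10 between 128028256 and 128029040 (mm8).

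Rpl39 and Rpl13 were low on the ob/ob array alone. Rpl39, a small protein that lines the peptide exit tunnel, had signals of 19398, 17782, 12017 and 15920 on the WT, TBP-2-/-, ob/ob and ob/ob TBP-2-/- arrays. It was 1.78-fold lower for ob/ob minus WT (-0.83 ± 0.20) and 1.56-fold higher for ob/ob TBP-2-/- minus ob/ob (0.64 ± 0.20). Rpl13 had 50101, 47918, 29612 and 43873, which gave -0.90 ± 0.20 and 0.80 ± 0.20. The 2 were the only members 1.5-fold higher on the ob/ob TBP-2-/- than on the ob/ob array, against 6.51% of all genes higher and 3.64% lower. Under spike-in scaling neither reached 1.5-fold in either comparison, though the signs held. Rpl13 has a further bright probe, with signals of 29295, 30949, 25832 and 25577, which gave only -0.32 and 0.22, so the size of its change rests on 1 probe.

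The other members past 1.5-fold lay near that limit. Rps28 had signals of 43120, 39818, 29407 and 34478 and a difference of -0.69 ± 0.20, and its other probes gave -0.65 and -0.62. Rps29 had 47498, 45367, 33797 and 38758, with -0.63 ± 0.20. Rpl41, Rps23, Rps27a and Rps24 lay between -0.60 and -0.59. Rps27a is made as a fusion of ubiquitin with a small subunit protein. Under spike-in scaling Rps29, Rpl41, Rps23, Rps27a and Rps24 were above 0, from 0.05 to 0.10, and Rps24 was 0.19 when the median over its probes was taken. That 0.19 is the value of a dim probe, with signals of 34 on the WT and 43 on the ob/ob array. The other dim Rps24 probe gave -0.58. The next 3 members lay at -0.55, with no gap at the limit.

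A few members went the other way. Rpl4, a core large subunit protein, had signals of 4080, 3962, 4882 and 4060 on the WT, TBP-2-/-, ob/ob and ob/ob TBP-2-/- arrays, with the ob/ob array highest, and a difference of 0.12 ± 0.20 for ob/ob minus WT. Rpsa, the small subunit protein also known as the laminin receptor, had 3822, 4001, 4425 and 3557, and 0.07 ± 0.20. Neither difference exceeded its error.

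**Figure D3:**
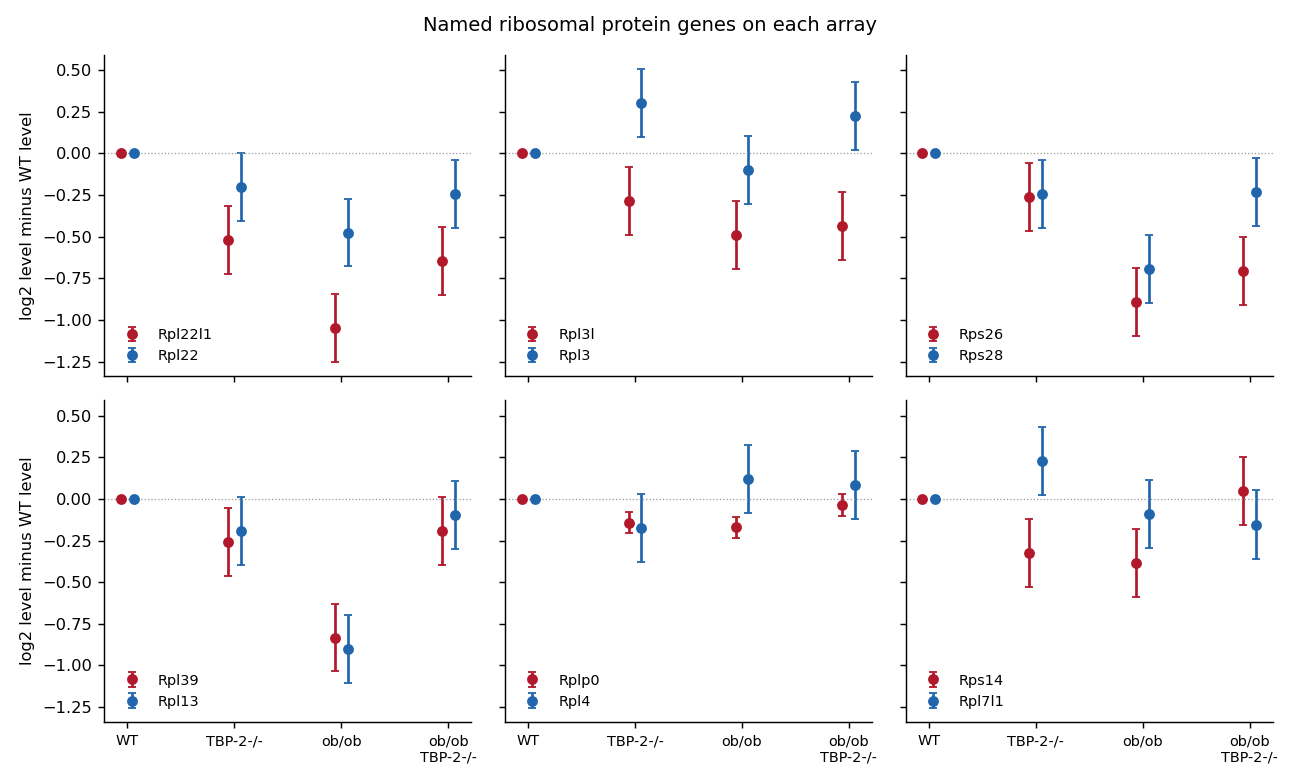
Log2 level minus the WT level (vertical axis) on each array for 12 named members, with bars of 1 SE of the difference from the error model and the WT array at 0 by construction, under 75th percentile scaling. Rpl22l1, Rps26, Rps28, Rpl39 and Rpl13 lie lowest on the ob/ob array (-1.05 for Rpl22l1), Rps26 stays low on the ob/ob TBP-2-/- array, and Rpl3 lies above 0 on both arrays without TBP-2.

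With loss of TBP-2, Rpl3 stood apart from the family median in lean muscle and lay near it on the ob/ob background. Rpl3 shapes the peptidyl transferase centre, and Rpl3l takes its place in ribosomes of striated muscle. The Rpl3 signal was 3303 on the WT and 4458 on the TBP-2-/- array, and 3399 on the ob/ob and 3618 on the ob/ob TBP-2-/- array. Its difference was 0.30 ± 0.20 without TBP-2 on the lean background, the highest of the 81, and 0.32 ± 0.20 on the ob/ob background. These comparisons share no array. The first was above 0 in all 9 settings, and the second was -0.21 under spike-in scaling. Rpl3l had signals of 36708, 32908, 28780 and 25445, highest on the WT array. It differed by -0.29 ± 0.20 in TBP-2-/- minus WT and by 0.06 ± 0.20 in ob/ob TBP-2-/- minus ob/ob. Set against Rpl3, which removes the array scaling, Rpl3l changed by -0.59 ± 0.29 on the lean and by -0.27 ± 0.29 on the ob/ob background with loss of TBP-2. The second of these is within its error, and is -0.32 under quantile normalization.

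Of the remaining paralog pairs, Rpl7l1 and Rpl7 differed most. Rpl7l1, a dim paralog of Rpl7 linked to ribosome assembly, had signals of 391, 502, 405 and 329. It was higher by 0.23 ± 0.20 in TBP-2-/- minus WT and lower by -0.38 ± 0.20 in ob/ob TBP-2-/- minus TBP-2-/-, which shares the TBP-2-/- array with the first. Set against Rpl7 these were 0.33 ± 0.29 and -0.41 ± 0.29, but the other measured Rpl7l1 probe, with signals of 276, 278, 269 and 227, gave only -0.12 and -0.07, so the contrast rests on 1 probe. Rps27l, a p53-responsive paralog, and Rps27 moved alike, with -0.43 and -0.48 for ob/ob minus WT, and their contrast was at most 0.11 in size in each of the 4 comparisons against an error of 0.29. Rps14 was high on the WT and ob/ob TBP-2-/- arrays, with signals of 97676 and 94577 against 85292 on the TBP-2-/- and 82459 on the ob/ob array. Its difference was -0.33 ± 0.20 for loss of TBP-2 in lean and 0.43 ± 0.20 in ob/ob muscle. For ob/ob TBP-2-/- minus TBP-2-/- it had the highest member value, 0.37, followed by Rps15a (0.30) and Rps20 (0.29), and after Rps26 and Rpl7l1 the lowest were Rps9 (-0.28) and Rpl31 (-0.26). These 5 small and large subunit genes kept their sign in all 9 settings.

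The members used as reference genes had a range of values. For ob/ob minus WT, Rplp0, Rpl13a, Rps18, Rpl32, Rpl4 and Rps29 gave -0.17, -0.23, -0.37, -0.39, 0.12 and -0.63. The span from Rps29 to Rpl4 was 0.75, the same under spike-in scaling and 0.60 under quantile normalization. For TBP-2-/- minus WT the span of the 6 was 0.15. It was 0.46 for ob/ob TBP-2-/- minus ob/ob and 0.26 for ob/ob TBP-2-/- minus TBP-2-/-. The error of a difference between a given pair of these genes was 0.29. It does not measure these spans, whose ends were picked as the lowest and highest of the 6. Whether the spans exceed technical error was not tested.

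The departure from additivity, the difference for loss of TBP-2 on the ob/ob background minus that on the lean one, was above 0 for 79 members, against 58.7% of all genes, with a median of 0.45 against 0.08. It was smaller under quantile normalization, with a median of 0.19 and 65 members above 0, against 52.3% of all genes, and under cyclic loess, with 0.17 and 66 members, against 52.0%. Rpl13 (0.997), Rpl22l1 (0.92) and Rpl39 (0.90) had the largest values. Under spike-in scaling the member median was -0.32 and that of all genes -0.69. Rpl7l1 (-0.29) and Rpsa (-0.02) lay below 0. Other bright genes departed too: with percentile scaling the 479 within the members' interquartile range of level had a median of 0.30. The 41 members in that range had 0.45. Under quantile normalization these medians were 0.02 and 0.19. Across members the TBP-2-/- minus WT and ob/ob TBP-2-/- minus ob/ob differences, which share no array, had Pearson's r of -0.30 (n = 81 genes), against 0.31 over 14981 genes. Under quantile normalization r was -0.16 against 0.32. The genes of an array share its RNA and its scaling, so they are not independent points.

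The only test these arrays allow is an additive fit of the genotypes with limma over 16201 genes, whose error is the departure from additivity on 1 residual degree of freedom. For the TBP-2 term 0 members passed a Benjamini-Hochberg adjusted p of 0.05, against 0.0988% of all genes fitted, and 0 had an unadjusted p under 0.05, against 9.75%. For the ob/ob term 0 members passed, against 0.222%, and 1 had an unadjusted p under 0.05, against 13.6%. That member was Rps26, with a fitted ob/ob difference of -0.67 and an adjusted p of 0.27 in limma, lower on the ob/ob array of both pairs. Over the alternatives in which it led, its adjusted p in limma lay between 0.11 and 0.33, except under normexp background correction, where it was 0.00083. There 2 members passed, Rps26 and Rpl22l1, but so did 1079 of the 16201 genes, a larger share than among the members. As reported, 36 genes passed. Under spike-in scaling Rpl4 led instead, with an adjusted p of 0.95. Rpl3 led the TBP-2 term, at 0.31 with an adjusted p of 0.62 in limma, higher without TBP-2 in both pairs. The departure described above is the error of this fit, so members that depart from additivity cannot be called by it.

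The promoters of the members were taken from RefSeq (GRCm38.p6) as 250 bases before to 50 after the annotated start, which held 61 of the 81 members. An unbroken run of 7 or more C or T letters overlapping the stretch from 10 bases before to 20 after the start was found in 32 of them, or 52.5%, against 24.5% of 27025 promoters. The letters CCGGAAG, on either strand, were in 24 members, or 39.3%, against 9.12%. CTTTCC was in 45.9% against 26.3%, GGGCGG in 60.7% against 35.9%, AAGATGG in 14.8% against 6.48% and TATAAA in 9.84% against 14.2%. A match is a string of letters and not a site. Members with a run of 7 or more and those with a shorter one had like medians for ob/ob minus WT, -0.43 (SD 0.25, n = 32 genes) and -0.45 (SD 0.16, n = 29 genes). With and without CCGGAAG the medians were -0.44 and -0.40, and with and without TATAAA, which only 6 members held, they were -0.58 (SD 0.34) and -0.42 (SD 0.18). The stretch from 80 bases before to 20 bases into the transcript is shown for 4 members low on the ob/ob array (Rpl22l1, Rps26, Rpl39, Rps28), a stalk gene near the family's median (Rplp2), 2 members not lower there (Rpl4, Rpsa) and the muscle paralog Rpl3l. Sequences run 5′ to 3′ on the gene's strand, and capitals mark the longest run of C and T overlapping the start region.
Rpl22l1, chr3:28805428-28805527, plus strand: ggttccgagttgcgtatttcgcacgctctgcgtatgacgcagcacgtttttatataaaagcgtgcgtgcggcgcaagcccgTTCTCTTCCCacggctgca
Rps26, chr10:128626487-128626586, minus strand: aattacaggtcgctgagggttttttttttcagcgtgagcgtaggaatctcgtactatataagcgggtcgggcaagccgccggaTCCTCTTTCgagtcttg
Rpl39, chrX:37085203-37085302, minus strand: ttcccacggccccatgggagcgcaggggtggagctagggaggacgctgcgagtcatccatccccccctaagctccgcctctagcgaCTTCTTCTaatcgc
Rps28, chr17:33824543-33824642, minus strand: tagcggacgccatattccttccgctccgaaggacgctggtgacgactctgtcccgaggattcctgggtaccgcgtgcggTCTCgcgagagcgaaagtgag
Rplp2, chr7:141447571-141447670, plus strand: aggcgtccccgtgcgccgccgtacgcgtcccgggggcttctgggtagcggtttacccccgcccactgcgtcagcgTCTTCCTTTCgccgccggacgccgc
Rpl4, chr9:64173307-64173406, plus strand: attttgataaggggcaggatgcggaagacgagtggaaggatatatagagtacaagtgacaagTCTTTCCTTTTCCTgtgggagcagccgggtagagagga
Rpsa, chr9:120127686-120127785, plus strand: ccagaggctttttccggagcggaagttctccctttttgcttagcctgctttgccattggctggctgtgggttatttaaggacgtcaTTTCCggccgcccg
Rpl3l, chr17:24727746-24727845, plus strand: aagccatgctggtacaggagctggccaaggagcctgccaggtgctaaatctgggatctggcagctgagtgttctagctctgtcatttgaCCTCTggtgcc

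The longest run had 10 letters in Rpl22l1 and Rplp2, 9 in Rps26, 8 in Rpl39, 4 in Rps28, 14 in Rpl4 and 5 in Rpsa and Rpl3l. Long and short runs thus occurred both among the members lower on the ob/ob array under percentile scaling and among those that were not. The only long run shown among the latter is that of Rpl4. It begins at position -18 from the annotated start and ends before that start, so it lies outside the transcript as annotated. Of these 8 promoters, that of Rpl3l held none of the 5 letter strings in its whole window.

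Large and small subunit genes had like medians. Spike-in scaling adds the same constant to every gene of a comparison, so signs in the lists that follow hold for percentile scaling, while the distances between lists hold for both. Their medians for ob/ob minus WT were -0.40 and -0.38, and for ob/ob TBP-2-/- minus ob/ob 0.26 and 0.30. Under quantile normalization they were -0.15 and -0.13, and 0.20 and 0.22. Among ribosomal components outside the naming rule, Fau, fused to a ubiquitin-like protein, the scaffold Rack1 and Rpl36al lay between -0.38 and -0.23 for ob/ob minus WT and between 0.23 and 0.48 for ob/ob TBP-2-/- minus ob/ob.

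For the same pair of comparisons, lists of genes that make or use ribosomes had medians nearer 0 than the members under percentile scaling. For TBP-2-/- minus WT this did not hold, since assembly factors and initiation factors had -0.17 each, as the members did, and under quantile normalization assembly factors had -0.11 and the members 0.00. Of 55 ribosome assembly factors 53 were measured, with medians of -0.08 for ob/ob minus WT and -0.07 for ob/ob TBP-2-/- minus ob/ob. None was 1.5-fold higher or lower in the former, and 1 was lower in the latter: Nob1, an endonuclease of small subunit maturation, had signals of 562, 729, 920 and 493 and a difference of -0.67. The 11 measured genes of RNA polymerase I transcription had medians of -0.03 and 0.06, with Polr1f at -0.73 and Taf1b at 0.66 for ob/ob minus WT. The 12 elongation and termination factors had 0.01 and -0.06. Among them Eef1b2, with -0.55, and Eef1g, with -0.46, lay on the members' side for ob/ob minus WT. Eef1a1 (0.04) and its muscle form Eef1a2 (-0.35) differed from each other there, and Eef1a1 was 0.33 and 0.41 with loss of TBP-2 on the lean and ob/ob backgrounds. The 30 initiation factors had -0.13 and -0.01, with Eif4e, the cap-binding protein, at -0.85 for ob/ob minus WT.

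Of 17 further genes with TOP messages 16 were measured, with medians of -0.18 and 0.15 for the same pair of comparisons. Pabpc1, the poly(A)-binding protein, had signals of 16286, 18094, 10150 and 14950, lowest on the ob/ob array, and differences of -0.82 and 0.79, near those of Rpl13. Of the mTOR and S6 kinase genes, Ddit4, which restrains mTOR, had 7668, 12455, 9209 and 32409, highest on the ob/ob TBP-2-/- array, where it was 2.05 above the ob/ob array. Deptor, a further mTOR inhibitor, was -0.99 for ob/ob minus WT. Signals on the arrays report messenger RNA, not mTOR activity.

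Mitochondrial ribosomal proteins, which serve the separate ribosomes of mitochondria, had a different pattern. All 75 were below 0 for ob/ob minus WT, with a median of -0.33, and the median stayed at -0.18 under quantile normalization. All 75 were also below 0 for TBP-2-/- minus WT, with a median of -0.24, and -0.13 under quantile normalization. For ob/ob TBP-2-/- minus ob/ob their median was -0.03, where the cytosolic members had 0.29. The 38 proteasome subunits had -0.14 and 0.19. The differences between these lists were not tested, since genes of 1 array are not replicates.

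**Figure D4:**
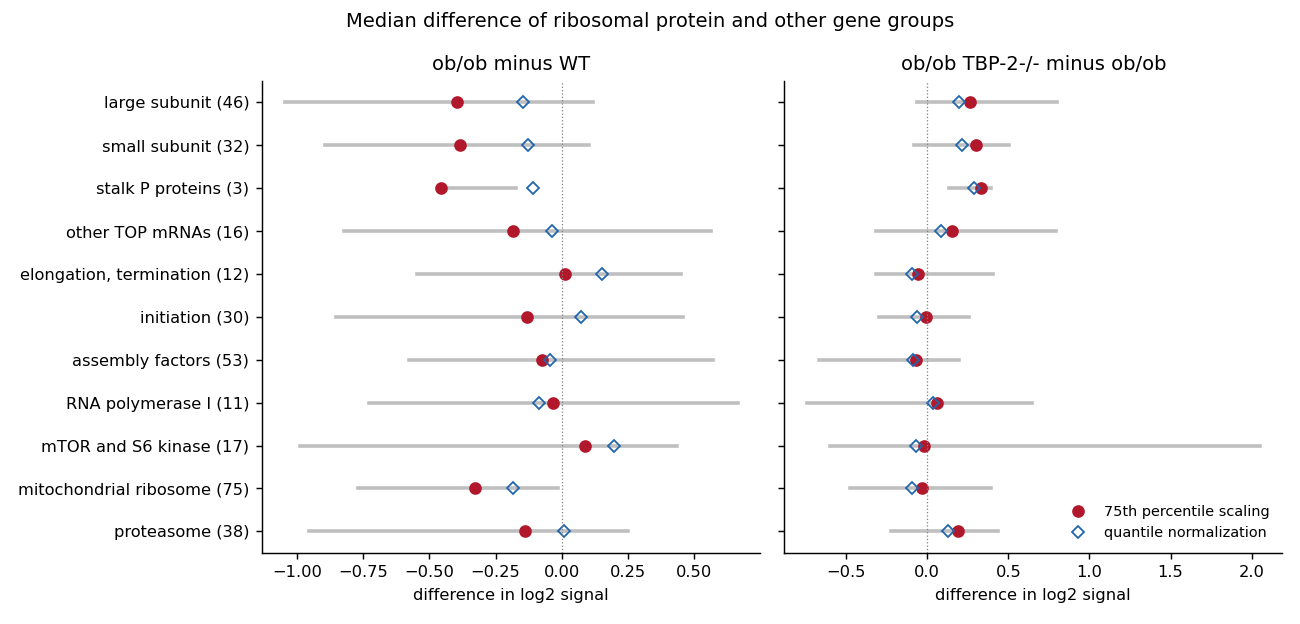
Median difference in log2 signal (horizontal axis) of ribosomal protein genes and other gene lists for ob/ob minus WT and ob/ob TBP-2-/- minus ob/ob, with 75th percentile scaling as red circles, quantile normalization as blue diamonds, the lowest to highest member under percentile scaling as grey bars and the number of genes measured in brackets. Under percentile scaling the cytosolic lists lie lowest in the first panel (-0.40 for the large and -0.38 for the small subunit) and highest in the second, and the mitochondrial list is low in the first (-0.33) and near 0 in the second (-0.03). Under quantile normalization the mitochondrial list is the lowest of the first panel (-0.18).

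Markers of other cells moved between the same arrays. Of 8 proliferation markers 4 were measured, and their median was -0.58 for ob/ob minus WT and 0.98 for ob/ob TBP-2-/- minus ob/ob, on the same sides as the family. For TBP-2-/- minus WT it was 0.70 and for ob/ob TBP-2-/- minus TBP-2-/- -0.25. The family lay on the other side in both, at -0.17 and 0.06. The summed scaled level of the 4 ran only from 0.913 to 1.52 over the arrays, and Top2a, Ccnb1 and Cdc2a were not above background on any array. Fibroblast markers (8 of 8 measured) had medians of 0.04 and 0.55, with a summed scaled level of 378 on the WT, 532 on the TBP-2-/-, 384 on the ob/ob and 643 on the ob/ob TBP-2-/- array. Adipocyte markers (9 of 9) had 0.39 and 1.29 and sums from 259 to 395. Macrophage markers (9 of 9) had -0.04 and 0.24, with sums from 63.8 to 85.5. Slow fibre markers (8 of 8) had medians of -0.80 and -0.50. Tendon markers (7 of 8) were low on the WT array, with a sum of 21.9 against 68.0 to 126 on the other 3. Their part in the family's differences was not tested.

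For the 36 members with several probes well above background, the median range between probes was 0.09 for TBP-2-/- minus WT, 0.13 for ob/ob TBP-2-/- minus ob/ob, 0.14 for ob/ob minus WT and 0.12 for ob/ob TBP-2-/- minus TBP-2-/-. All probes of a gene had the same sign in 26, 29, 26 and 22 of the 36 genes in these comparisons. Of 135 member probes 127 were well above background on all arrays. The 8 of them with a WT signal under 100 scattered from -0.91 to 0.66 for ob/ob minus WT. Ribosomal protein genes have many processed pseudogenes, and hybridization to such copies cannot be told apart from the gene itself by these files. The brightest probe of Rpl10 is placed on chromosome 13, whereas RefSeq places the gene on chromosome X, so its value is uncertain. The other 80 probes lie on the gene's own chromosome.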

How the data were processed

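Spot intensity values in the deposited scanner files were made with Agilent Feature Extraction 9.5.3.1, per the file headers, which subtracted background and spatial trends and did not scale arrays. The authors also deposited a log2 value table of the same arrays, scaled at the 75th percentile and centred per probe, as its comparison with the scanner signals shows. Here spots marked as outliers were left out (59 to 110 per array), replicate spots were averaged and log2 signals were scaled by the 75th percentile of 41132 probes. For pairwise differences a gene had to be measured above background on the pair. The 4 arrays share 1 slide and 1 scan. The additive fit used limma 3.58.1 in R 4.3.3 on genes measured on 2 or more arrays, and was tested on simulated data. Alternatives were quantile, cyclic loess (chosen after seeing the data) and spike-in scaling, a percentile over measured probes, normexp with an offset of 50, the median over probes, no filter, the authors' table and an intensity trend. The members, lists and alternatives were chosen with earlier results of these data known. Genes named are the 4 largest each way per comparison, members past 1.5-fold, stalk genes, paralogs, reference genes and the largest of each list. Probe positions are on mm8 and promoters on GRCm38.p6. The number of arrays limits the precision. Some genes that the naming rule covers are not reported here.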

Additional observations from a re-analysis of the deposited data

Results flagged for a closer look

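The ribosomal protein genes differed between the backgrounds in their response to loss of TBP-2. Their median was below 0 for TBP-2-/- minus WT and above 0 for ob/ob TBP-2-/- minus ob/ob, a distance of 0.451 on the log2 scale. This was not particular to the family: the 479 other genes of like brightness had medians of -0.20 and 0.11, and a median distance of 0.30. The members' median for TBP-2-/- minus WT was not below 0 under quantile (0.00), cyclic loess (0.02) or spike-in scaling (0.07). Among the members that the naming rule covers, those with opposite signs on the lean and ob/ob backgrounds, each beyond 1 SE of the error model, were Rpl22l1 (0.92), Rpl39 (0.90), Rps14 (0.76), Rps28 (0.71), Rps27a (0.70), Rpl41 (0.68), Rps27 (0.65), Rplp1 (0.58), Rps27l (0.52), Rps24 (0.45), Rpl22 (0.44) and Rplp0 (0.28), where the value is the distance between the responses. For Rpl22 the other bright probe was below 0 on both backgrounds (-0.03 and -0.37), so its listing rests on 1 probe. For the ob/ob genotype, of the same screened members, the response was below 0 with TBP-2 and above 0 without it for Rpl12 (0.76), Rps14 (0.76), Rps15a (0.65), Rps20 (0.57) and Rplp0 (0.28). With 1 array per genotype these differences were not tested. They depend on the scaling, since the family median of the distance was 0.19 under quantile, 0.17 under cyclic loess and -0.32 under spike-in scaling.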

How the results depend on the processing

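No paired analysis was possible because each genotype has 1 array and the labels give no replicate numbers. For the same reason no array could be left out, and 1 slide and 1 scan gave no block. Cyclic loess was chosen after seeing the data. The cause of the changes below was not tested. Relative to all genes, the family median for TBP-2-/- minus WT was 0.0358 under quantile and 0.0403 under loess normalization. For ob/ob minus WT it was -0.1255 and -0.1395, and -0.2152 with no filter on dim probes, which gave -0.0971 for ob/ob TBP-2-/- minus TBP-2-/-. The plain median for TBP-2-/- minus WT was 0.0000 under quantile, 0.0687 under spike-in and 0.0229 under loess scaling. For ob/ob minus WT it was -0.1298, 0.2917 and -0.1434, and for ob/ob TBP-2-/- minus ob/ob it was -0.2412 under spike-in and 0.1931 under loess scaling. Members 1.5-fold lower for ob/ob minus WT numbered 3 under quantile, 4 under loess, 0 under spike-in and 5 under a percentile over measured probes. Of 15139 genes the numbers were 911, 937, 141 and 794. Under spike-in scaling 5 members were higher by that much, against 8511 of the 15139 genes. For ob/ob TBP-2-/- minus ob/ob 1 member was higher under quantile, loess and the median over probes, against 911, 975 and 1086 of 15537 genes. Under spike-in scaling 0 members were higher and 2 lower, against 210 and 5875 genes. For TBP-2-/- minus WT 1 member was lower under the median over probes, against 574 of 15265 genes. Spike-in scaling left 2 members lowest on the ob/ob array, against 1.05% of all genes. Normexp gave 2 members called for the ob/ob term, against 1079 of 16201 genes. For ob/ob minus WT spike-in scaling turned Rpl41 (0.0872), Rps23 (0.0812), Rps24 (0.0882), Rps27a (0.0950) and Rps29 (0.0503), and the median over probes turned Rps24 (0.1938). The last value is that of a dim probe. Of the other values for single genes, 587 stayed past the limit in the same direction or moved by less than their SE of the error model. A further 100 moved by more, 29 fell below the limit and 6 rose past it. Dim probes limit the few members with low signals.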
